A study of Homo sapiens with 30 samples.

Results

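The BCL2 family is the set of proteins that decides whether the outer membrane of the mitochondrion stays closed or is opened in cell death. The 10 members described here were the rows of the count table whose Ensembl identifier maps to BCL2, BCL2L1, MCL1, BCL2L11, PMAIP1, BBC3, BMF, BID, BAX or BAK1, which makes 10 of 60675 genes. All 10 passed the filter on low counts and were among the 19632 genes tested. Their RNA was sequenced in SW1783 cells, a long-established line from a human astrocytoma, kept for 24 h with a 70% ethanol extract of 1 of 4 traditional Korean herbal formulas. The doses were 20, 100 and 500 µg/mL. Sayeok-tang and Bojungikgi-tang had 3 libraries per dose. Banhasasim-tang had 2 libraries per dose (replicates 2 and 3) and Yijung-tang had 1 (replicate 3). The vehicle group had 3 libraries, for which the sample labels give 0.1% DMSO and the design text of the series 2% DMSO. No library was genetically altered, and all came from this 1 line.

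Members fall into 3 classes by what their proteins do. The guardians BCL2, BCL2L1 (BCL-XL) and MCL1 hold the killer proteins in check. The effectors BAX and BAK1 form the openings through which cytochrome c leaves the mitochondrion, after which the apoptosome activates caspases. The BH3-only proteins BCL2L11 (BIM), PMAIP1 (NOXA), BBC3 (PUMA), BMF and BID sense damage or stress. They occupy the groove of the guardians or activate the effectors, and they do so through a short helix, the BH3 segment. Many BH3-only genes are controlled at the level of transcription, BBC3 and PMAIP1 by p53 and by the stress response factors ATF4 and DDIT3 and BCL2L11 by FOXO factors, while BID is switched on by caspase cleavage and MCL1 protein is short-lived. In glial tumours the balance of these proteins is known to affect how readily cells die under treatment.

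The segment that defines the family is shown first, because all 10 members carry it. The coding sequence of the BH3 segment was cut from the principal transcript of each gene in the GENCODE v29 annotation (39 bases each, 5′ to 3′). Capitals mark the codon of the leucine and the codon of the aspartate that the family shares.
BCL2: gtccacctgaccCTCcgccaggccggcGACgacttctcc
BCL2L1: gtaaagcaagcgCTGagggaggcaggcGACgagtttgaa
MCL1: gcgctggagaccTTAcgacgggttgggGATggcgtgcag
BCL2L11: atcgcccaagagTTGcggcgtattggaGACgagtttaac
PMAIP1: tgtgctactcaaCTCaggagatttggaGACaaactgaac
BBC3: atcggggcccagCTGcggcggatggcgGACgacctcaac
BMF: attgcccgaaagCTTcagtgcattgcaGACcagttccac
BID: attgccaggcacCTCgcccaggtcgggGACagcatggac
BAX: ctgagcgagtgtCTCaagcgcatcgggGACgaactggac
BAK1: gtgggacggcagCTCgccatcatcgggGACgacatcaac
Between pairs of members the 39 bases were 30.8% to 69.2% identical. The pair most alike was BCL2L11 and BMF, with 27 identical bases (69.2%). BCL2L11 and BBC3 shared 25 bases (64.1%), as did BAK1 and BID. PMAIP1 shared only 12 bases (30.8%) with BCL2 and with MCL1, and BMF shared 12 with MCL1.

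Promoter windows (250 bases before to 50 after a RefSeq start site, GRCh38.p14) were on hand for 9 of the 10 members, MCL1 being the one without. Those of 4 BH3-only genes are printed because, of the BH3-only genes, these had the largest fold changes from 20 to 500 µg/mL of Banhasasim-tang, BBC3, PMAIP1 and BCL2L11 upwards and BMF downwards. They are chr19:47232618-47232917 on the minus strand for BBC3, chr18:59899746-59900045 on the plus strand for PMAIP1, chr2:111120664-111120963 on the plus strand for BCL2L11 and chr15:40108830-40109129 on the minus strand for BMF, which has a second start site that is not shown. Capitals mark matches to the 5 motifs searched on both strands.
BBC3: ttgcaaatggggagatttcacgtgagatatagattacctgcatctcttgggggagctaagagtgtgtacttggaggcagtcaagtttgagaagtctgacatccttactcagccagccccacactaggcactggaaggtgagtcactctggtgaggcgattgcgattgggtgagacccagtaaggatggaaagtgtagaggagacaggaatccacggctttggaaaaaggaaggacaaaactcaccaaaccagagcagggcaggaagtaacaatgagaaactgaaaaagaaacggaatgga
PMAIP1: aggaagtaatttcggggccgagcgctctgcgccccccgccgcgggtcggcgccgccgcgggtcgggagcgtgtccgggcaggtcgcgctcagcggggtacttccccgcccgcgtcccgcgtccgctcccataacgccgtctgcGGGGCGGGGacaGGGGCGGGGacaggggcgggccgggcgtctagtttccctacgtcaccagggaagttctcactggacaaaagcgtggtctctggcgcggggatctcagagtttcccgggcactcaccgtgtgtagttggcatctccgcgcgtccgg
BCL2L11: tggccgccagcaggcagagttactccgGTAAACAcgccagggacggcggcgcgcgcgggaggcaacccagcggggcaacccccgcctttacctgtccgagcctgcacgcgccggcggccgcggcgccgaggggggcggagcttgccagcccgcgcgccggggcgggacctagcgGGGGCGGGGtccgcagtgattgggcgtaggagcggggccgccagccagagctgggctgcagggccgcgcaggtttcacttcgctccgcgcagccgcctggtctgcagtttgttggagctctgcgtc
BMF: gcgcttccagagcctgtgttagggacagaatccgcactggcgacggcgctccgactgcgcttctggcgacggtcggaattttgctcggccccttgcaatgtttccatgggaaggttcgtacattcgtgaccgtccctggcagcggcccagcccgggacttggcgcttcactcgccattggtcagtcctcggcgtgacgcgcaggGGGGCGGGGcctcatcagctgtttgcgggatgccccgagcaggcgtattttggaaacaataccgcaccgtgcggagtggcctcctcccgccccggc
The motifs were TGACGTCA (the CRE), TGATGNAA (the C/EBP-ATF composite), GTAAACA (FOXO), TTTCCCGC (E2F) and GGGGCGGGG (SP1), and no match overlapped another. The window of BCL2L11 held GTAAACA at 223 bases before the start site, a motif found in 3.42% of 35116 promoter windows, and 1 SP1 match. The SP1 letters also occurred 2 times in the window of PMAIP1 and 1 time in that of BMF, and BID was the only other member with a match; they were in 15.7% of all windows. The letters of the CRE (1.85% of all windows), the C/EBP-ATF composite (3.62%) and E2F (1.63%) were in none of the 15 member windows. The BBC3 window held none of the 5 motifs. Windows of 300 bases do not cover more distant elements.

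Library totals ran from 28008057 to 59895899 counts. Levels are given as CPM (counts scaled to a common library size, with TMM factors), and differences as log2 fold changes with their standard error. A member was called where edgeR's quasi-likelihood test gave a Benjamini-Hochberg adjusted p under 0.05 over all 19632 genes. Whether the libraries of 2 groups overlapped is given as a description only. With 2 or 3 libraries per dose, groups can separate without an effect. The share of all genes that separated is not given here. The labelled cell type was only partly visible in its markers: in vehicle, VIM stood at 4339.6 CPM, GJA1 at 247 and SOX9 at 74.9, whereas GFAP (0.0828 CPM), S100B (0.213), ALDH1L1 (0.0237) and AQP4 (0) were at or near 0. KRT7, a keratin of simple epithelia, stood at 630.0 CPM and KRT18 at 225. The other epithelial markers, EPCAM (0.0475 CPM) and CDH1 (0.0237), were near 0. The codes in the sample descriptions put vehicle in a set of its own, Sayeok-tang with Bojungikgi-tang in another and Banhasasim-tang with Yijung-tang in the last. In comparisons with vehicle, treatment and set cannot be told apart, while comparisons between doses of 1 formula lie inside 1 set. The labels do not say that replicates came from separate cultures, so p-values measure the spread between libraries, which may be technical. Replicate 2 of Bojungikgi-tang at 20 µg/mL stood apart, with a chi-square per gene of 32.8 and 33.2 against its partners, which were 13.6 from each other. Without it, 3 members in place of 5 were called between 500 and 20 µg/mL of Bojungikgi-tang, PMAIP1 and BID being lost. In bulk RNA, fewer cells expressing a gene and less RNA per cell cannot be told apart.

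In vehicle cells MCL1 and BCL2L1 were the most abundant members per length of transcript, while BCL2, the other guardian, was near the bottom. MCL1 stood at 41.7 ± 0.546 CPM per kilobase of exon (SD, n = 3) and BCL2L1 at 33.2 ± 1.18. BAX followed at 21.3, PMAIP1 at 19.5 and BAK1 at 18.2 CPM per kilobase. Further down came BID (6.57), BCL2L11 (1.33), BMF (0.871), BCL2 (0.703) and BBC3 (0.0874 CPM per kilobase). Of the 9 neighbouring pairs in this order, BAX and PMAIP1 overlapped between libraries and the other 8 did not. MCL1 lay above 95.4% of the tested genes on this scale, BCL2 above 35% and BBC3 above 10.5%.

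Between the lowest and the highest library of all 30, BBC3 varied most, from 0.209 to 2.61 CPM (12.5-fold). PMAIP1 varied 2.48-fold, BCL2 2.42-fold and BMF 2.22-fold. MCL1 (1.24-fold) and BAK1 (1.23-fold) varied least.

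**Figure D1:**
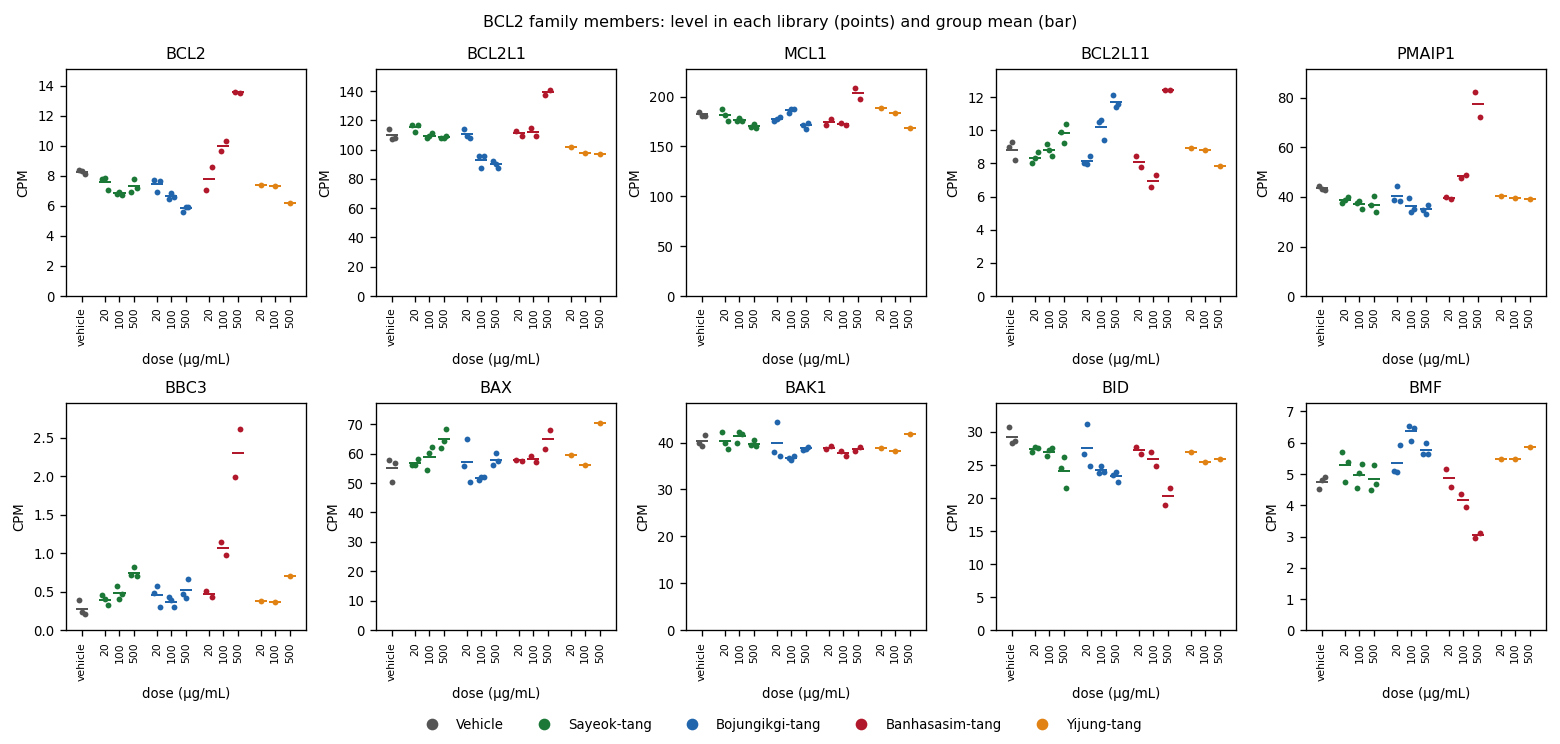
Level of each of the 10 members (y axes, CPM from 0) in every library, by treatment and dose (x axes, µg/mL); points are libraries and bars are group means. BBC3 reached 1.99 and 2.61 CPM in the Banhasasim-tang libraries at 500 µg/mL, and BAK1 stayed between 36.2 and 44.4 CPM throughout.

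The largest dose effect was in Banhasasim-tang. From 20 to 500 µg/mL, 6 members rose (BBC3, PMAIP1, BCL2, BCL2L11, BCL2L1 and MCL1) and 2 fell (BMF and BID), where 43.7% of all tested genes were called (22.3% higher, 21.3% lower). In Sayeok-tang 3 members rose (BBC3, BCL2L11 and BAX) and 0 fell, with 20.5% of all genes called (9.89% higher, 10.6% lower). There DESeq2 called 3 higher and 3 lower, adding BCL2L1, MCL1 and BID below. In Bojungikgi-tang 1 rose (BCL2L11) and 4 fell (BCL2, BCL2L1, PMAIP1 and BID), with 15.5% of all genes called (6.64% higher, 8.9% lower). BCL2L11 was thus called higher in all 3 formulas, and BAK1 in none. The median size of the log2 fold change over the members was 0.52 in Banhasasim-tang, 0.11 in Sayeok-tang and 0.20 in Bojungikgi-tang, against 0.29, 0.14 and 0.13 over all tested genes. The 3 formulas were given at the same doses in µg/mL of extract. Banhasasim-tang lies in another set of libraries than the other 2 formulas. Between it and them, formula and set therefore cannot be told apart.

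**Figure D2:**
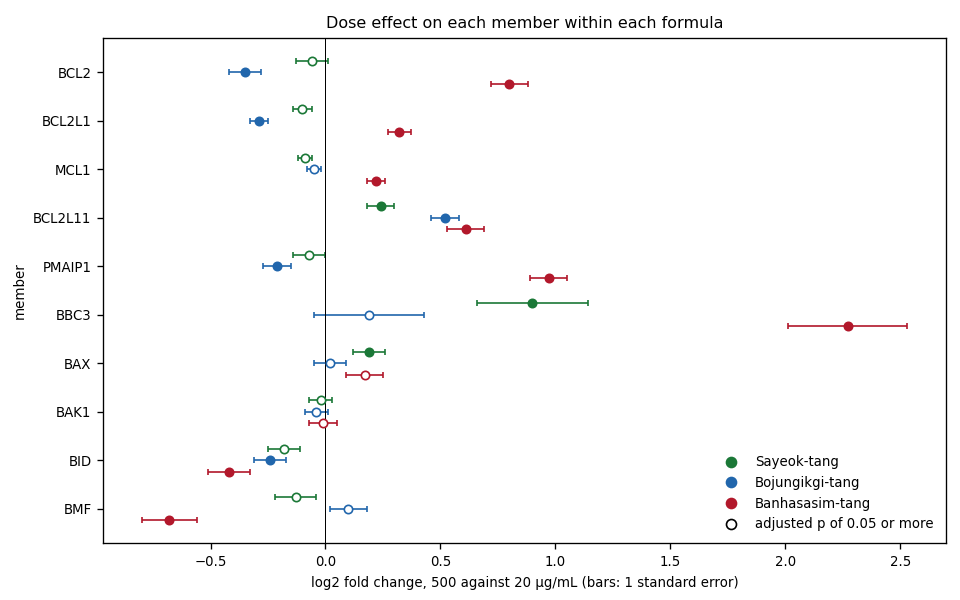
Log2 fold change from 20 to 500 µg/mL (x axis) for each member (y axis) within Sayeok-tang, Bojungikgi-tang and Banhasasim-tang; bars are 1 standard error and open symbols have an adjusted p of 0.05 or more. BBC3 in Banhasasim-tang lies farthest to the right (2.27), and BCL2, BCL2L1 and PMAIP1 lie on opposite sides of 0 in Bojungikgi-tang and Banhasasim-tang.

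Among the guardians, BCL2 moved in opposite directions in different formulas. In Banhasasim-tang its libraries read 7.06 and 8.58 CPM at 20 µg/mL, then 9.65 and 10.3 at 100, then 13.6 and 13.5 at 500. No dose overlapped another, and levels rose in order. In Bojungikgi-tang they read 7.71, 6.92 and 7.68 CPM at 20 µg/mL, then 6.48, 6.86 and 6.6 at 100, then 5.62, 5.95 and 5.91 at 500. Again the doses did not overlap, but here the highest dose was lowest. The log2 fold change from 20 to 500 µg/mL was 0.80 ± 0.08 in Banhasasim-tang (edgeR adjusted p = 5.9e-09) and -0.35 ± 0.07 in Bojungikgi-tang (adjusted p = 0.000813). In Sayeok-tang the libraries of both doses overlapped (7.8, 7.87 and 7.06 CPM at 20 µg/mL, 6.9, 7.78 and 7.21 at 500; adjusted p = 0.615). BCL2 (ENSG00000171791, chr18:63123346-63320128, minus strand) encodes the founding guardian of the family.

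BCL2L1 (ENSG00000171552, chr20:31664452-31723989, minus strand), whose long protein form BCL-XL binds most BH3-only proteins, showed the same contrast on a smaller scale. Its libraries read 113 and 109 CPM at 20 µg/mL of Banhasasim-tang and 137 and 141 at 500, a log2 fold change of 0.32 ± 0.05 (edgeR adjusted p = 1.99e-06). In Bojungikgi-tang they read 114, 109 and 108 CPM at 20 µg/mL and 92.5, 90.1 and 87.4 at 500, a log2 fold change of -0.29 ± 0.04 (adjusted p = 2.57e-06). Libraries of the 2 doses did not overlap in either formula. At 100 µg/mL of Bojungikgi-tang BCL2L1 stood at 95.5, 87.6 and 95.9 CPM (adjusted p = 0.000862 against 20, but 0.323 in a fit of the compared groups alone). In Sayeok-tang, 117, 112 and 117 CPM at 20 µg/mL stood against 108, 108 and 109 at 500 (adjusted p = 0.0792). The antisense gene ABALON covers 43% of the exon bases of BCL2L1, and whether counting used the strand is not stated in the sources used here. ABALON itself was at most 2.47 CPM in vehicle, and from 20 to 500 µg/mL of Banhasasim-tang it fell (-0.83 ± 0.20, adjusted p = 0.00151) while BCL2L1 rose. In Bojungikgi-tang ABALON had the sign of BCL2L1 (-0.30 ± 0.16) but was not called (adjusted p = 0.218). Against vehicle, both were lower at 500 µg/mL of Bojungikgi-tang (ABALON -0.61 ± 0.16, adjusted p = 0.0042). In Sayeok-tang ABALON read -0.08 ± 0.16 from 20 to 500 µg/mL (adjusted p = 0.787). Whether the 2 genes shared reads was not tested.

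MCL1 (ENSG00000143384, chr1:150574551-150579738, minus strand), a guardian with a short-lived protein, changed little in size. It stood at 172 and 178 CPM at 20 µg/mL of Banhasasim-tang and 209 and 198 at 500, and the log2 fold change of 0.22 ± 0.04 passed the test (edgeR adjusted p = 6.68e-05). In Sayeok-tang it stood at 188, 182 and 176 CPM against 169.9, 173 and 169, a log2 fold change of -0.09 ± 0.03 just short of the threshold (adjusted p = 0.0502). In Bojungikgi-tang it stood at 176, 178 and 180.0 CPM against 172, 168 and 174 (adjusted p = 0.327). From 100 to 500 µg/mL of Bojungikgi-tang MCL1 fell by 0.12 on the log2 scale (adjusted p = 0.0274), a call that was lost without any 1 of 5 of its 6 libraries, the third library at 500 µg/mL being the exception (adjusted p = 0.0558 to 0.137).

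BBC3 (ENSG00000105327, chr19:47220822-47232766, minus strand), which encodes PUMA, a strong BH3-only activator and p53 target, had the largest fold change of all members. Its counts were low: 6 to 11 expected counts per vehicle library and 70 and 130.0 at 500 µg/mL of Banhasasim-tang. In Banhasasim-tang it stood at 0.513 and 0.437 CPM at 20 µg/mL, then 1.15 and 0.975 at 100, then 1.99 and 2.61 at 500. No overlap was seen between doses, and each step was called higher. The log2 fold change was 2.27 ± 0.26 from 20 to 500 µg/mL (4.82-fold, edgeR adjusted p = 3.09e-08), 1.15 ± 0.27 from 20 to 100 (adjusted p = 0.00775) and 1.12 ± 0.23 from 100 to 500 (adjusted p = 0.000429). In Sayeok-tang it stood at 0.455, 0.413 and 0.326 CPM at 20 µg/mL and 0.724, 0.82 and 0.708 at 500. These did not overlap either, with a log2 fold change of 0.90 ± 0.24 (adjusted p = 0.00708). In Bojungikgi-tang the libraries overlapped, with 0.484, 0.58 and 0.304 CPM at 20 µg/mL and 0.468, 0.422 and 0.667 at 500 (adjusted p = 0.665). The step of BBC3 from 20 to 100 µg/mL was no longer called without replicate 2 at 100 (adjusted p = 0.112), replicate 2 at 20 (0.0503) or replicate 3 at 20 (0.0923).

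PMAIP1 (ENSG00000141682, chr18:59899948-59904306, plus strand), which encodes NOXA, a BH3-only protein that binds chiefly MCL1, rose in Banhasasim-tang. It stood at 39.9 and 39.2 CPM at 20 µg/mL, then 47.8 and 49 at 100, then 82.5 and 72.3 at 500. No dose overlapped another, and the log2 fold change from 20 to 500 µg/mL was 0.97 ± 0.08 (1.95-fold, edgeR adjusted p = 6.33e-11). In Bojungikgi-tang it stood at 38.6, 44.4 and 38.5 CPM at 20 µg/mL and 34.9, 33.3 and 36.9 at 500. This fall of -0.21 ± 0.06 (adjusted p = 0.0269) was not called without replicate 1 at 500 (adjusted p = 0.079), replicate 2 at 500 (0.134) or replicate 2 at 20, where the value was -0.13 (adjusted p = 0.194). It was also lost with library size as the only scaling (adjusted p = 0.112). In Sayeok-tang the doses overlapped, from 37.5 to 40.1 CPM at 20 µg/mL and from 33.8 to 40.3 at 500 (adjusted p = 0.524).

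BCL2L11 (ENSG00000153094, chr2:111119378-111168447, plus strand), which encodes BIM, a BH3-only protein that binds all guardians, rose from 20 to 500 µg/mL in each of the 3 formulas, but along different courses. In Bojungikgi-tang it stood at 8.05, 7.94 and 8.42 CPM at 20 µg/mL, then 10.5, 10.6 and 9.41 at 100, then 12.1, 11.4 and 11.6 at 500. In Banhasasim-tang it stood at 8.42 and 7.8 CPM at 20 µg/mL, 6.58 and 7.3 at 100 and 12.4 in both libraries at 500. The doses did not overlap in either formula, and the lowest dose in level was the middle one in Banhasasim-tang. The log2 fold change from 20 to 500 µg/mL was 0.52 ± 0.06 in Bojungikgi-tang (edgeR adjusted p = 8.74e-07), 0.61 ± 0.08 in Banhasasim-tang (adjusted p = 3.15e-07) and 0.24 ± 0.06 in Sayeok-tang (8.05, 8.32 and 8.67 against 9.92, 9.26 and 10.4 CPM, adjusted p = 0.0085). The value in Sayeok-tang was 0.20 without replicate 3 at 500 µg/mL, with an adjusted p of 0.0533. From 20 to 100 µg/mL BCL2L11 was called higher in Bojungikgi-tang (0.32 ± 0.07, adjusted p = 0.00977, not called without replicate 1 or 2 at 100, 0.0673 and 0.0643). The change of -0.23 ± 0.08 over the same step in Banhasasim-tang did not pass (adjusted p = 0.102). The antisense gene MIR4435-2HG covers 10.9% of the exon bases of BCL2L11 and stood at 24 CPM in vehicle. MIR4435-2HG fell from 20 to 500 µg/mL by 0.24, 0.39 and 0.42 on the log2 scale in Sayeok-tang, Bojungikgi-tang and Banhasasim-tang. Whether MIR4435-2HG and BCL2L11 shared reads was not tested.

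BMF (ENSG00000104081, chr15:40087890-40108892, minus strand), a BH3-only protein held at the cytoskeleton in healthy cells, went the other way. In Banhasasim-tang it stood at 5.15 and 4.6 CPM at 20 µg/mL, then 4.36 and 3.95 at 100, then 2.96 and 3.11 at 500. The doses did not overlap and fell in order, with a log2 fold change of -0.68 ± 0.12 from 20 to 500 µg/mL (edgeR adjusted p = 2.19e-05). In the other formulas the doses overlapped and neither change was called (-0.13 ± 0.09 in Sayeok-tang, adjusted p = 0.334; 0.10 ± 0.08 in Bojungikgi-tang, adjusted p = 0.475). BMF-AS1, antisense to BMF, covers 8.46% of its exon bases.

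BID (ENSG00000015475, chr22:17734138-17774770, minus strand), the link between death receptors and mitochondria, was lower at 500 µg/mL in every formula, and 2 of the 3 differences were called. In Banhasasim-tang it stood at 27.8 and 26.6 CPM at 20 µg/mL and 18.9 and 21.6 at 500, a log2 fold change of -0.42 ± 0.09 (edgeR adjusted p = 0.000197). In Bojungikgi-tang it stood at 26.6, 31.2 and 24.8 CPM against 23.5, 24 and 22.5 (-0.24 ± 0.07, adjusted p = 0.0147). The doses did not overlap, but without replicate 2 at 20 µg/mL, its highest library, the value was -0.14 (adjusted p = 0.157), and without replicate 3 at 500 it was not called (adjusted p = 0.0729). In Sayeok-tang it stood at 27, 27.7 and 27.6 CPM against 24.5, 26.2 and 21.6 (-0.18 ± 0.07, adjusted p = 0.0579). DESeq2 called the difference in Sayeok-tang (adjusted p = 0.0493).

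Of the effectors, BAX was called in Sayeok-tang and BAK1 in no formula. BAX (ENSG00000087088, chr19:48954815-48961798, plus strand) stood at 56.2, 56.2 and 58.3 CPM at 20 µg/mL of Sayeok-tang and 61.8, 64.3 and 68.5 at 500. The doses did not overlap, and the log2 fold change of 0.19 ± 0.07 lay at the threshold (edgeR adjusted p = 0.0499). It lost its call without any 1 of the 3 libraries at 20 µg/mL or of replicates 2 and 3 at 500 (adjusted p = 0.0701 to 0.204). BAX stood at 57.7 and 57.6 CPM against 61.6 and 68.1 in Banhasasim-tang (0.17 ± 0.08, adjusted p = 0.0969), and its doses overlapped in Bojungikgi-tang (adjusted p = 0.868). BAK1 (ENSG00000030110, chr6:33572547-33580293, minus strand) overlapped between doses in all 3 formulas, with log2 fold changes of -0.02 ± 0.05, -0.04 ± 0.05 and -0.01 ± 0.06 in Sayeok-tang, Bojungikgi-tang and Banhasasim-tang. The first 2 of these BAK1 values turned to 0.02 and 0.01 where libraries were scaled by their size alone. The BAK1 pseudogenes BAK1P1 and BAK1P2, with which reads could be shared, reached at most 0.143 and 0.0542 CPM.

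Steps through the middle dose were compared within each formula only. From 20 to 100 µg/mL, 3 members rose in Banhasasim-tang (BBC3, BCL2 and PMAIP1) and 0 fell, with 6.6% of all genes called (3.64% higher, 2.96% lower). BCL2 changed by 0.35 ± 0.08 (edgeR adjusted p = 0.00771) and PMAIP1 by 0.29 ± 0.08 (adjusted p = 0.0229). Neither BCL2 without replicate 2 at 20 (0.21, adjusted p = 0.293) or replicate 3 at 100 (adjusted p = 0.106), nor PMAIP1 without any 1 of the 4 libraries (adjusted p = 0.101 to 0.154), was called. In Bojungikgi-tang 1 rose (BCL2L11) and 1 fell (BCL2L1), with 1.56% of all genes called (0.458% higher, 1.11% lower). In a fit of the compared groups alone neither was called (adjusted p = 0.342 for BCL2L11). In Sayeok-tang 0 members were called by edgeR or DESeq2 (2 at an unadjusted p under 0.05), with 0.0306% of all genes called. From 100 to 500 µg/mL, 6 members rose and 2 fell in Banhasasim-tang, with 31.2% of all genes called (15.5% higher, 15.7% lower). The largest of these steps after that of BBC3 was BCL2L11, with 0.84 ± 0.08 (adjusted p = 3.8e-09). BID (-0.35 ± 0.09) was not called without replicate 2 at 500 (adjusted p = 0.0606), nor BMF (-0.45 ± 0.12) without replicate 2 at 100 (adjusted p = 0.0681). Over the same step 1 member, MCL1, fell in Bojungikgi-tang, with 4.58% of all genes called (1.94% higher, 2.65% lower), and 0 were called in Sayeok-tang by edgeR or DESeq2 (3 at an unadjusted p under 0.05), with 14.7% of all genes called.

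Several measures of the libraries moved with dose, mitochondrial ribosomal RNA in Banhasasim-tang and marker sums in all 3 formulas. Mitochondrial ribosomal RNA took 3.44% to 3.93% of counts at 20 µg/mL, 9.69% to 9.71% at 100 and 7.7% to 7.82% at 500, against 1.41% to 1.64% in the Sayeok-tang and Bojungikgi-tang libraries and 0.942% to 1% in vehicle. In Banhasasim-tang it was highest at 100 µg/mL. With all mitochondrially encoded and ribosomal RNA genes left out, the comparison of 500 with 20 µg/mL of Banhasasim-tang gave 6 members higher and 2 lower. The summed level of the 5 neuron markers was 156 to 159.6 CPM at 20 µg/mL of Banhasasim-tang and 90.9 to 94.1 at 500. In vehicle this sum was mostly TUBB3 (108 CPM), with SYT1 at 33.2, SNAP25 at 32.8, MAP2 at 8.71 and RBFOX3 at 0.169 CPM. The summed 5 myeloid markers went from 15.3 to 16.2 CPM down to 4.34 to 4.85. In vehicle they were mostly PTPRC (14 CPM), with CSF1R at 3.63, CD14 at 0.314, CX3CR1 at 0.0296 and AIF1 at 0. In Sayeok-tang the neuron sum went from 164 to 169.8 CPM down to 113 to 115, and the myeloid sum from 14.4 to 18.4 down to 8.41 to 9.87. In Bojungikgi-tang the neuron sum went from 171 to 185 CPM down to 159 to 164 and the myeloid sum from 15.9 to 17.9 down to 11.6 to 13. The sum of the 9 astrocyte markers went from 4675 to 5129 CPM down to 3786 to 3888 in Bojungikgi-tang. In Sayeok-tang it went from 4076 to 4918 down to 3791 to 3967. Most of this sum in vehicle (4522 to 4914 CPM) was VIM, with a mean of 4339.6 CPM. The summed 4 epithelial markers, nearly all KRT7 and KRT18 in vehicle, went from 885 to 983 CPM down to 585 to 668 in Bojungikgi-tang. In Sayeok-tang they went from 937 to 988 down to 796 to 849, and in Banhasasim-tang from 895 to 902 down to 735 to 816. The summed 4 oligodendrocyte markers, mostly MBP in vehicle (6.98 CPM), rose in Banhasasim-tang, from 7.45 to 7.62 CPM up to 9.93 to 10.5. The part of mitochondrial ribosomal RNA and of these markers in the results was not tested.

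The difference between 2 dose effects was tested directly, with no vehicle library. The dose effect of Banhasasim-tang exceeded that of Bojungikgi-tang for 5 members and fell short of it for 1, with 31.8% of all genes called (16.5% higher, 15.3% lower). The difference was 2.08 ± 0.36 for BBC3 (edgeR adjusted p = 4.09e-05), 1.18 ± 0.10 for PMAIP1 (adjusted p = 5.82e-10) and 1.15 ± 0.11 for BCL2 (adjusted p = 2.73e-09). BCL2L1 (0.62 ± 0.06) and MCL1 (0.27 ± 0.05) followed, MCL1 losing its call with library size as the only scaling (0.14, adjusted p = 0.0589), and BMF differed by -0.79 ± 0.14. For BCL2L11, which rose in both, the difference was 0.09 ± 0.10 (adjusted p = 0.558). Sayeok-tang differed from Banhasasim-tang in 7 members, 6 with the smaller value in Sayeok-tang and BMF with the larger, with 24.4% of all genes called (12.2% in each direction). The difference was -1.37 ± 0.36 for BBC3, which rose in both formulas (adjusted p = 0.00496), and -0.37 ± 0.10 for BCL2L11 (adjusted p = 0.00735). The BCL2L11 difference was not called without replicate 3 at 20 µg/mL of Banhasasim-tang (adjusted p = 0.051) or with library size as the only scaling (adjusted p = 0.062), nor the BMF difference of 0.55 ± 0.15 without replicate 2 there (adjusted p = 0.052). Sayeok-tang and Bojungikgi-tang differed in 1 member, BCL2L1, by 0.20 ± 0.05 (adjusted p = 0.0302), with 4.49% of all genes called (2.12% higher, 2.37% lower). That call was lost without any 1 of 7 libraries: all 3 of Sayeok-tang at 500, replicate 2 of Sayeok-tang at 20, replicate 1 of Bojungikgi-tang at 20 and replicates 2 and 3 of Bojungikgi-tang at 500 (adjusted p = 0.0533 to 0.0973).

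**Figure D3:**
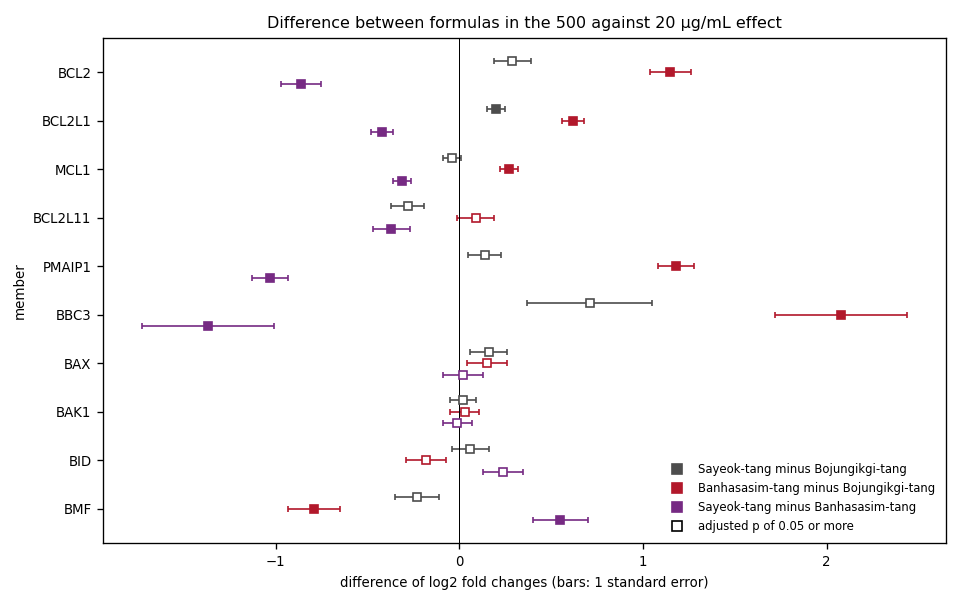
Difference between 2 formulas in the log2 fold change from 20 to 500 µg/mL (x axis) for each member (y axis), with bars of 1 standard error and open symbols where the adjusted p is 0.05 or more. Banhasasim-tang minus Bojungikgi-tang is called for BCL2, BCL2L1, MCL1, PMAIP1, BBC3 and BMF, while the 3 differences for BAX and for BAK1 are all open.

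Set against vehicle, where the set of libraries changes with the treatment, more members were called at 500 µg/mL. In Banhasasim-tang 7 were higher and 2 lower, with 51% of all genes called (25.9% higher, 25.1% lower). BBC3 led again with 3.07 ± 0.27 on the log2 scale (8.38-fold, edgeR adjusted p = 1.57e-10), from 0.388, 0.236 and 0.209 CPM in vehicle. BAX was called there (0.24 ± 0.08, adjusted p = 0.0108), though not without replicate 2 of vehicle (0.0904) or replicate 3 at 500 (0.204), nor with library size as the only scaling (0.211). MCL1 was 0.16 ± 0.04 higher, and only 0.03 with library size as the only scaling (adjusted p = 0.573). In Sayeok-tang 2 were higher (BBC3 by 1.45 ± 0.28 and BAX by 0.24 ± 0.07) and 4 lower, with 38.3% of all genes called (18.8% higher, 19.4% lower). PMAIP1 (-0.23 ± 0.07) and BID (-0.27 ± 0.07) were lower in every alternative. BAX lost its call without replicate 2 of vehicle (adjusted p = 0.0751), MCL1 (-0.10 ± 0.03) without replicate 1 of vehicle or replicates 1 and 3 at 500 (0.0562 to 0.0766), and BCL2 (-0.18 ± 0.07) without any 1 library except replicate 2 at 500 (0.0635 to 0.196).

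In Bojungikgi-tang at 500 µg/mL, 3 members were higher than in vehicle (BBC3, BCL2L11 and BMF) and 5 lower, with 34.6% of all genes called (16.4% higher, 18.2% lower). BCL2 was the lowest, at -0.51 ± 0.07 (edgeR adjusted p = 5.38e-06), and BCL2L11 was 0.40 ± 0.07 higher (adjusted p = 2.77e-05). BBC3 (0.92 ± 0.30, adjusted p = 0.0166) was not called without replicate 2 of vehicle (0.0883), replicate 3 of vehicle (0.077) or replicate 3 at 500 (0.102). BMF (0.28 ± 0.09) was not called without replicate 1 of vehicle (0.08) or replicate 2 at 500 (0.069), and MCL1 (-0.09 ± 0.03) without any 1 library except replicate 3 at 500 (0.0632 to 0.153). At 20 µg/mL, edgeR called 0 members against vehicle in Sayeok-tang, Bojungikgi-tang or Banhasasim-tang, while it called 25.3%, 26.2% and 18.3% of all genes. DESeq2 also called 0 members, but it gave no adjusted p for BBC3 there and so could not call it. At an unadjusted p under 0.05 there were 1, 2 and 1 members. BBC3 had the largest value at 20 µg/mL in each formula, 0.55 ± 0.31, 0.73 ± 0.30 and 0.80 ± 0.33 on the log2 scale, none of which passed (adjusted p = 0.211, 0.0793 and 0.0932). The comparisons with vehicle share its 3 libraries and are not independent of each other.

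Yijung-tang had 1 library per dose, so its values have no replicate check. At 500 µg/mL, 4 members lay above the range of the vehicle libraries and 6 below it, where 74% of all tested genes lay outside that range. BBC3 was at 0.381 CPM at 20 µg/mL, then 0.373 at 100, then 0.701 at 500, the last a log2 ratio of 1.25 to the vehicle mean. BAX was at 70.4 CPM at 500 µg/mL (log2 ratio 0.36), the highest of all 30 libraries. BCL2 was at 6.16 CPM (-0.42) and BCL2L11 at 7.83 (-0.17), so BCL2L11 lay below the vehicle range here.

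Of 11 other genes of the BCL2 family, 6 passed the filter on low counts. The shares of all tested genes called from 20 to 500 µg/mL, against which the counts of this and the following lists are to be read, were 20.5% in Sayeok-tang, 15.5% in Bojungikgi-tang and 43.7% in Banhasasim-tang. Of the 6 genes, 3 were called higher and 1 lower in Banhasasim-tang, and 1 was lower in Bojungikgi-tang. The 3 include HRK, which passed the filter only through the group where it was high. The Banhasasim-tang count of this list therefore cannot be set against the 43.7%. In Sayeok-tang 0 were called by edgeR, with 0 also at an unadjusted p under 0.05. HRK, a BH3-only gene known from neurons, was singled out after its values were seen. It held 48 and 56 expected counts at 500 µg/mL of Banhasasim-tang (1.12 to 1.36 CPM) against 2 and 5 at 20 (0.046 to 0.0885 CPM), and every other library had at most 10 counts of it. HRK was high in that group alone among the 13, the group that carried it past the filter on low counts, so its call is a description and no test of it is given. BCL2L2, a guardian, rose by 0.26 ± 0.05 in Banhasasim-tang, and BOK, an effector-like gene, changed by -0.34 ± 0.09; both were also named after their values were seen.

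**Figure D4:**
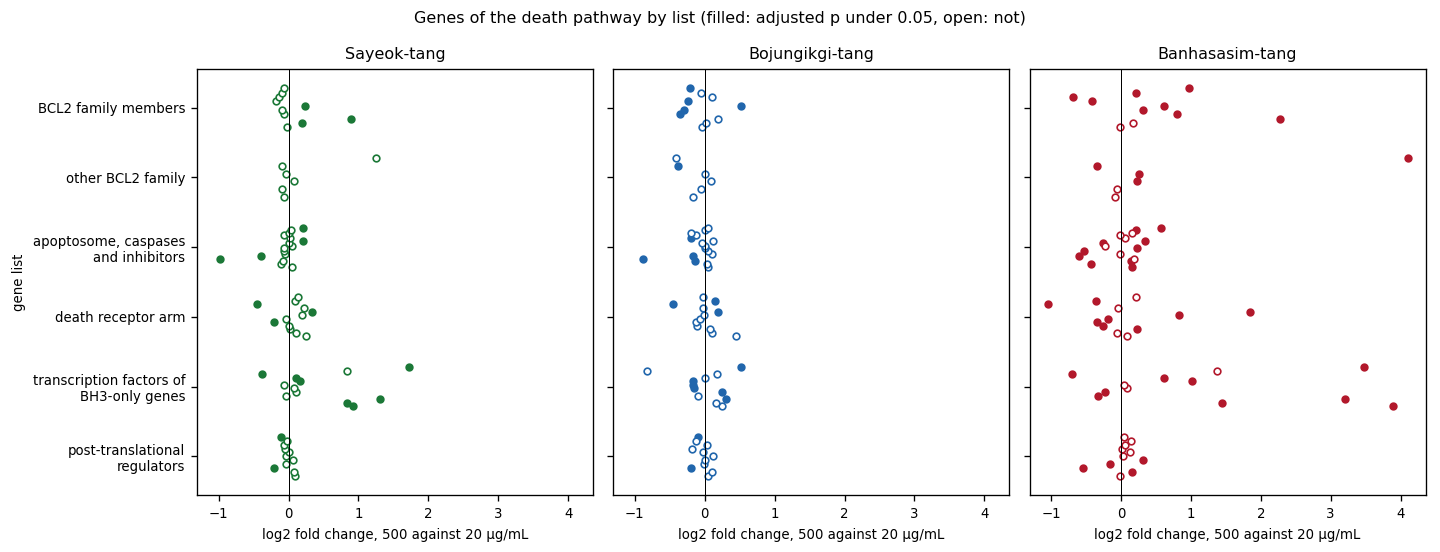
Log2 fold change from 20 to 500 µg/mL (x axes, 1 scale) for the 10 members and for 5 lists of other genes of the pathway (y axis) in 3 formulas; each point is a gene, filled where the adjusted p is under 0.05. TRIB3 (3.48) and DDIT3 (3.21) are among the points farthest to the right in Banhasasim-tang, and the point at 4.10 is HRK, whose fitted value rests on 2 and 5 counts at 20 µg/mL.

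Downstream of the mitochondrion, 16 of 16 genes of the apoptosome, the caspases and their inhibitors were tested. From 20 to 500 µg/mL 2 rose and 2 fell in Sayeok-tang (20.5% of all genes called), 0 rose and 4 fell in Bojungikgi-tang (15.5%), and 6 rose and 4 fell in Banhasasim-tang (43.7%). CASP9, the initiator caspase of the apoptosome, rose by 0.21 ± 0.06 in Sayeok-tang (edgeR adjusted p = 0.0147) and by 0.34 ± 0.08 in Banhasasim-tang (adjusted p = 0.000546). XIAP, which blocks that caspase, rose beside it, by 0.20 ± 0.06 and 0.57 ± 0.08. BIRC5 (survivin), which is made mainly by dividing cells, fell in all 3, by 0.39, 0.17 and 0.60 on the log2 scale in Sayeok-tang, Bojungikgi-tang and Banhasasim-tang. BIRC3, an inhibitor induced by NF-kB, fell by 0.98 in Sayeok-tang and 0.88 in Bojungikgi-tang, while its value in Banhasasim-tang was 0.19 ± 0.12 (adjusted p = 0.23).

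Of 12 genes of the death receptor arm, 1 rose and 2 fell in Sayeok-tang, 2 rose and 1 fell in Bojungikgi-tang, and 3 rose and 5 fell in Banhasasim-tang, beside 20.5%, 15.5% and 43.7% of all genes called. TNFRSF10B, the TRAIL receptor DR5, went from 52.1 and 54 CPM at 20 µg/mL of Banhasasim-tang to 190.2 and 191 at 500 (1.85 ± 0.04, edgeR adjusted p = 1.3e-22). TNFRSF10B also rose in Sayeok-tang (0.33 ± 0.03) and Bojungikgi-tang (0.19 ± 0.03). TNFRSF10D, a decoy receptor for the same ligand, fell in all 3, by 0.45, 0.45 and 1.05 on the log2 scale in Sayeok-tang, Bojungikgi-tang and Banhasasim-tang. FAS fell by 0.21 in Sayeok-tang and 0.35 in Banhasasim-tang.

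Of 12 transcription factors and cofactors known to act on BH3-only genes, 6 rose and 1 fell in Sayeok-tang, 3 rose and 3 fell in Bojungikgi-tang, and 6 rose and 3 fell in Banhasasim-tang, where 20.5%, 15.5% and 43.7% of all genes were called. The median log2 fold change of the 12 was 0.14, 0.08 and 0.81, against 0.00, -0.00 and 0.01 over all genes. The list was chosen with earlier results of these data known, so these medians are a description only. DDIT3 (CHOP), a stress factor known to act on BBC3 and BCL2L11, had a mean of 24.1 CPM at 20 µg/mL and 59.6 at 500 in Sayeok-tang, and of 32.2 and 297 in Banhasasim-tang. Its log2 fold change was 1.31 ± 0.07 in Sayeok-tang, 0.30 ± 0.07 in Bojungikgi-tang and 3.21 ± 0.09 in Banhasasim-tang. TRIB3, a target and partner of DDIT3, followed the same order with 1.73 ± 0.06, 0.52 ± 0.06 and 3.48 ± 0.07. TP63, of the p53 family, fell in Sayeok-tang (-0.38 ± 0.11) and Banhasasim-tang (-0.70 ± 0.15). All of these were called by edgeR over all genes.

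Of 11 genes whose products act on the MCL1, BIM or NOXA proteins, 0 rose and 2 fell in Sayeok-tang and in Bojungikgi-tang, and 2 rose and 2 fell in Banhasasim-tang, near or below the shares of all genes called (20.5%, 15.5% and 43.7%). DYNLL1, the dynein light chain that holds BIM at the cytoskeleton, fell in all 3, by 0.21, 0.19 and 0.54 on the log2 scale in Sayeok-tang, Bojungikgi-tang and Banhasasim-tang. YWHAZ, a 14-3-3 protein, fell by 0.11 in Sayeok-tang and 0.10 in Bojungikgi-tang (edgeR adjusted p = 0.0173 and 0.0363), and its value in Banhasasim-tang was 0.05 ± 0.04.

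The genes whose pattern was most like that of BBC3 were sought among 13966 genes of at least 1 CPM, by Pearson correlation of log2 levels over the 13 group means. RNF220 (r = 0.991), CAMTA2 (0.989), DUSP15 (0.987) and PGAP2 (0.986) were among those with the highest values. The group means share libraries and depth, and Banhasasim-tang at 500 µg/mL was the highest group for BBC3. DUSP15, a phosphatase gene, stood at 1.11 CPM in vehicle and 11.9 in Banhasasim-tang at 500 µg/mL, and CAMTA2 at 55.2 and 148. A correlation over 0.9 was reached by 717 genes, so the pattern was widely shared.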

How the data were processed

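RNA of 30 libraries was sequenced. The authors deposited 1 table of expected counts per Ensembl gene, made with RSEM 1.3.3 per the submitters' processing notes. Those notes also list STAR 2.7.3a, Trim Galore 0.6.5, FastQC 0.11.9 and the hg38 genome build. The annotation release and the strand setting of counting are not given in the sources used here. Each library had 9.4% to 11.1% of values with a fraction, so the table was rounded before testing. Symbols came from a reference list of gene names, which held 93.2% of identifiers, and otherwise from GENCODE release 29. Coordinates of the members came from GENCODE release 29.

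Counts were tested in R 4.3.3 with edgeR 4.0.16 (limma 3.58.1): TMM scaling, its filter on low counts, and 1 quasi-likelihood fit of 13 group means over all 30 libraries, so that Yijung-tang libraries entered with no test of their own. Adjusted p-values are Benjamini-Hochberg over 19632 genes, with a threshold of 0.05. The standard error is the log2 fold change divided by the square root of the F statistic, an approximation. Log2 CPM values, used for the Yijung-tang ratios to vehicle and for the correlations of group means, have a prior count of 2. The fitted log2 fold changes were left at edgeR's default prior count. Comparisons were 500 against 20 µg/mL, each of these doses against vehicle, and differences between formulas in the first, 12 in all; 6 steps through 100 µg/mL were added after the data were seen. Alternatives were library size as the only scaling, DESeq2 size factors, no filter, a replicate block, a fit of the compared groups only, DESeq2 1.42.0, leaving out each library and, added later, leaving out mitochondrially encoded and ribosomal RNA genes. The fit was tested on simulated data.

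Members and gene lists were chosen with earlier results of these data known. All 10 members are named; other genes of the pathway are named by a rule: in each list, up to 2 called genes with the highest and 2 with the lowest log2 fold change in Sayeok-tang 500 against 20. HRK, BCL2L2 and BOK fall outside it. No pair of replicates agreed within sampling noise: the chi-square per gene was 2.43 to 33.2, highest for replicate 2 of Bojungikgi-tang at 20 µg/mL. The BH3 segment was found by its conserved pattern in the translated principal transcript, a choice of transcript made after the longest one of BBC3 gave a match outside BH3. One of the genes most like BBC3 in pattern is not reported here.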

Additional observations from a re-analysis of the deposited data

Results flagged for a closer look

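The dose effect, the log2 fold change from 20 to 500 µg/mL, differed between formulas for 14 pairs of member and comparison by edgeR's test of the difference itself. Banhasasim-tang exceeded Bojungikgi-tang by 2.08 for BBC3, 1.18 for PMAIP1, 1.15 for BCL2, 0.62 for BCL2L1 and 0.27 for MCL1, and BMF differed by -0.79. Sayeok-tang minus Banhasasim-tang gave -1.37 for BBC3, -1.03 for PMAIP1, -0.86 for BCL2, -0.42 for BCL2L1, -0.37 for BCL2L11 and -0.31 for MCL1, and 0.55 for BMF. Sayeok-tang minus Bojungikgi-tang gave 0.20 for BCL2L1. The differences involving Banhasasim-tang rest on 2 libraries per dose.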

How the results depend on the processing

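Counts of members called are given here as in the report and then under an alternative. With library size as the only scaling, 1 member was called for Banhasasim-tang 20 against vehicle (from 0) and 2 for Sayeok-tang 500 against 100 (from 0). Without the filter on low counts, 0 were called for Sayeok-tang minus Bojungikgi-tang (from 1). With only the compared groups in the fit, 3 were called for Bojungikgi-tang 500 against 20 (from 5), 1 each for Sayeok-tang and Banhasasim-tang 20 against vehicle (from 0), 0 for Sayeok-tang minus Bojungikgi-tang (from 1), 0 for Bojungikgi-tang 100 against 20 (from 2) and 3 for Bojungikgi-tang 500 against 100 (from 1). DESeq2 called 6 for Sayeok-tang 500 against 20 (from 3), 3 higher and 3 lower; it gave no adjusted p for BBC3 at 20 against vehicle or in Sayeok-tang minus Bojungikgi-tang. The cause was not tested.

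Leaving out 1 library at a time, 500 against 20 gave 1 to 3 in Sayeok-tang, 3 to 5 in Bojungikgi-tang and 8 in Banhasasim-tang. Against vehicle, 500 gave 4 to 7, 6 to 7 and 8 to 9, and 20 gave 0, 0 to 1 and 0. Differences gave 0 to 1 (Sayeok-tang minus Bojungikgi-tang), 6 to 7 (Banhasasim-tang minus Bojungikgi-tang) and 6 to 8 (Sayeok-tang minus Banhasasim-tang). The step from 20 to 100 gave 0, 1 to 5 and 0 to 1, and from 100 to 500 gave 0 to 1, 0 to 1 and 7 to 8. A Banhasasim-tang dose left with 1 library was assumed to vary like the other groups.

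Changes of sign were all in differences not called. With library size as the only scaling, BAK1 read 0.02, 0.01 (500 against 20, Sayeok-tang and Bojungikgi-tang), 0.00 and -0.01 (500 and 20 of Sayeok-tang against vehicle), -0.09 and 0.10 (differences of Banhasasim-tang and Bojungikgi-tang, and of Sayeok-tang and Banhasasim-tang). MCL1 read 0.00 (Bojungikgi-tang 500 against 20). BCL2L1 read 0.00, -0.01, -0.04, -0.08 and 0.03 (Sayeok-tang 500, Bojungikgi-tang 20 and Banhasasim-tang 20 against vehicle, Banhasasim-tang 100 against 20, Sayeok-tang 500 against 100). BMF read -0.02 (Banhasasim-tang 20 against vehicle), BCL2L11 -0.04 (Banhasasim-tang minus Bojungikgi-tang), BAX -0.08 (Banhasasim-tang 100 against 20) and PMAIP1 0.03 (Sayeok-tang 500 against 100). BCL2L1, BAK1 and MCL1 read 0.00 to 0.01 in uncalled comparisons without the filter, and MCL1 and BAK1 0.00 or 0.01 with only the compared groups, with DESeq2 or without mitochondrially encoded and ribosomal RNA genes. With 1 library left out, values of uncalled members that changed sign ranged as follows. For Sayeok-tang 500 against vehicle the range was BCL2L1 -0.04 to 0.00, BAK1 -0.04 to 0.00 and BMF -0.05 to 0.08. For Sayeok-tang 20 against vehicle the range was MCL1 -0.03 to 0.02, BAX -0.01 to 0.08 and BAK1 -0.04 to 0.03. For Bojungikgi-tang 20 against vehicle the range was BCL2L1 -0.02 to 0.03, BAX -0.05 to 0.14 and BAK1 -0.09 to 0.03. For Banhasasim-tang 20 against vehicle the range was BCL2 -0.23 to 0.05, BCL2L1 -0.01 to 0.04 and BMF -0.05 to 0.12. For Banhasasim-tang 500 against 20 the range was BAK1 -0.04 to 0.01. For Banhasasim-tang minus Bojungikgi-tang the range was BAK1 -0.06 to 0.08. For Sayeok-tang minus Banhasasim-tang the range was BAX -0.05 to 0.10 and BAK1 -0.04 to 0.03. For Banhasasim-tang 100 against 20 the range was BCL2L1 -0.03 to 0.04, MCL1 -0.04 to 0.01 and BAX -0.02 to 0.04. For Bojungikgi-tang 500 against 20 the range was BBC3 -0.04 to 0.41, BAX -0.06 to 0.13 and BAK1 -0.09 to 0.05. For Sayeok-tang minus Bojungikgi-tang the range was BAK1 -0.07 to 0.07 and BID -0.05 to 0.13. For Bojungikgi-tang 500 against 100 the range was PMAIP1 -0.10 to 0.02. For Sayeok-tang 500 against 20 the range was BAK1 -0.05 to 0.02. For Sayeok-tang 500 against 100 the range was PMAIP1 -0.07 to 0.05 and BMF -0.12 to 0.01.

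Library size as the only scaling moved the median of all genes by -0.12 in Banhasasim-tang 500 against vehicle, and the share of calls that were higher went from 51.2% to 39.3% in Banhasasim-tang 500 against 20, 48.2% to 62.8% in Sayeok-tang and 42.7% to 69.5% in Bojungikgi-tang. Replicate numbers did not pair the samples: deviations of same-numbered libraries in a label set correlated at -0.365 to 0.435 (median 0.015, 51 pairs). With the replicate block 3 members were called for Sayeok-tang 500 against 20 (2 higher, 1 lower: BAX lost at adjusted p = 0.0524, BID gained at 0.0424) and 5 for Sayeok-tang 500 against vehicle. Low counts limit BBC3 most, with 6 to 11 counts per vehicle library.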
